A study of Mus musculus with 12 samples.

Results

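The insulin-like growth factor (IGF) axis of the uterus was described through 9 genes: the ligand Igf1, the receptors Igf1r and Igf2r, and the binding proteins Igfbp2, Igfbp3, Igfbp4, Igfbp5, Igfbp6 and Igfbp7. They were chosen by gene symbol, with earlier results of these data known, out of 35896 genes to which the deposited transcripts could be assigned. Each library came from the whole uterus of 1 female, untreated, wild-type Swiss Webster mouse aged 8 to 12 weeks, and the groups were 4 stages of the estrous cycle, proestrus, estrus, metestrus and diestrus, with 3 uteri in each. Polyadenylated RNA was read by 3' TagSeq, which sequences a tag near the 3' end of each transcript. Proestrus held replicates 1, 2 and 3, estrus and diestrus replicates 3, 4 and 5, and metestrus replicates 5, 6 and 7, and values are listed in that order.

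IGF1 is a small secreted protein that stimulates growth and division of its target cells through the IGF1 receptor, a tyrosine kinase that signals through the insulin receptor substrates and the PI3 kinase and AKT pathway. The IGF2 receptor is the cation-independent mannose 6-phosphate receptor, which carries lysosomal enzymes and removes IGF2 from the cell surface without signalling as a kinase. The IGF binding proteins hold most secreted IGF in complexes and set how much of it reaches the receptors, and proteases release it from them. In the rodent uterus, Igf1 is known as an estrogen-responsive gene of the stroma that acts on the epithelium.

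The start regions of 4 of these genes are shown because their levels moved together or in opposite directions over the cycle. Igf1r and Igf2r were both highest in estrus, while Igf1 and Igfbp4 were both lowest there. Each sequence is the 250 bases before the gene's RefSeq start on GRCm38.p6, of the C57BL/6J reference and not of the Swiss Webster animals, written 5′ to 3′ on the gene's strand. Capitals mark matches on either strand to the core of the estrogen response element, GGTCA, here called the ERE core, the GC box GGGCGG and the TATA box TATAAA. They also mark the AP-1 pattern TGANTCA, a loose form of the site in which N is any base. For Igf1 only 30 bases around a match are given, since its whole RefSeq window lies within first exons of the GENCODE transcripts Igf1-201 and Igf1-204. Those transcripts took 0.613% and 0% of the Igf1 counts. Igf1-202 and Igf1-203, with 82.3% and 14.7%, start upstream of that window, at positions 87859068 and 87859258, so that it does not lie at their start. The windows were chr7:67952007-67952256 on the plus strand for Igf1r, chr17:12769707-12769956 on the minus strand for Igf2r, chr11:99040994-99041243 on the plus strand for Igfbp4 and chr10:87861063-87861092 on the plus strand for Igf1.
Igf1r: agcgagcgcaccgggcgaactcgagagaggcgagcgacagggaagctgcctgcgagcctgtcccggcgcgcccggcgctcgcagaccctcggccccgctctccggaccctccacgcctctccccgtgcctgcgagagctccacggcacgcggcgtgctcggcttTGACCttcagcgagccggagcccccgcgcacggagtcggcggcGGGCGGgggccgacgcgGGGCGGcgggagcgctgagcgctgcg
Igf2r: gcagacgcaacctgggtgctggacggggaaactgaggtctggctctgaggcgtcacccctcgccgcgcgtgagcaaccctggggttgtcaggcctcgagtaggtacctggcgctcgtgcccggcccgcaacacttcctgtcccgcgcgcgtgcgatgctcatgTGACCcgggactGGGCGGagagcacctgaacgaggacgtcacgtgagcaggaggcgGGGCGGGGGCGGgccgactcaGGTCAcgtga
Igfbp4: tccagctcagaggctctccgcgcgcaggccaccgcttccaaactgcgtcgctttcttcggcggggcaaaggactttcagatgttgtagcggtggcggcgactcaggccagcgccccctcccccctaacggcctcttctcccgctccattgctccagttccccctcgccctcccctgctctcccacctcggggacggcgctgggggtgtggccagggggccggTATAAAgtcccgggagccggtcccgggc
Igf1: gagctggaactTGAATCActattctggata

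The Igf1r window held 1 ERE core, 86 to 82 bases before the RefSeq start, and 2 GC boxes, and it was 77.6% G or C. It ends at position 67952256, upstream of the GENCODE start of Igf1r-201 at 67952827, the transcript with 99.1% of the Igf1r counts. The Igf2r window held 2 ERE cores and 3 GC boxes, and it was 69.2% G or C. The Igfbp4 window, as rich in G and C at 69.2%, held neither motif but a TATA box 28 to 23 bases before the start. The whole Igf1 window held 1 ERE core and the match to the AP-1 pattern shown, TGAATCA, with A at N, at 52.8% G or C. Across the 32817 mouse promoters in RefSeq's set the median was 52.4% G or C, and 35.2% of windows held an ERE core, 32.7% a GC box, 12.4% a TATA box and 6.75% the loose AP-1 pattern. RefSeq gave 10 windows for the 9 genes. ERE cores also lay in the windows of Igfbp6 and Igfbp7 and in the second of the windows of Igfbp2. GC boxes also lay in the first window of Igfbp2 (3) and in that of Igfbp7 (4), neither gene being called over the stages. A TATA box lay in that of Igfbp6 and a match to the AP-1 pattern, TGAGTCA, in the second of Igfbp2. None of the 10 windows held the full estrogen response element (GGTCA, any 3 bases, TGACC), the steroid response element (GNACA, any 3 bases, TGTNC) or the FOXO site GTAAACA, which were found in 0.064%, 0.387% and 3.16% of all promoters. A match describes letters only, and binding was not measured.

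The libraries held 1652841 to 2200563 estimated counts, so that 3 counts were worth 1.37 to 1.83 CPM. CPM, a gene's counts relative to the library's total, are here scaled by TMM, edgeR's correction for library composition. On this scale 3 counts of Igfbp2 in metestrus replicate 6 were 1.89 CPM. All 9 genes passed the filter on low counts. The 3 metestrus libraries were less alike than those of the other stages, with correlations of log2 CPM of 0.897 to 0.910 against 0.939 to 0.957, and metestrus replicate 7 held the highest metestrus level of 6 of the 9 genes and the lowest of Igfbp5. Markers of stroma, epithelium, smooth muscle, endothelium and macrophages were all detected. Of liver, the main source of circulating IGF1, albumin (Alb) was at 0 counts in all 12 libraries, as was the oocyte gene Zp3, and the 4 adipocyte markers summed to at most 4.57 CPM. Other markers of neighbouring tissue were detected: the 3 liver markers summed to 7.48 to 30.4 CPM, mostly Ttr, and the 5 ovary markers to 8.70 to 25.2 CPM, mostly Star. The 3 oviduct markers summed to 44.0 to 56.3 CPM in estrus and 9.85 to 30.9 CPM in the other stages, and Ovgp1 alone was called higher in estrus than in proestrus (44.8 ± 4.58 against 14.5 ± 5.57 CPM, adjusted p = 0.0322).

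**Figure D1:**
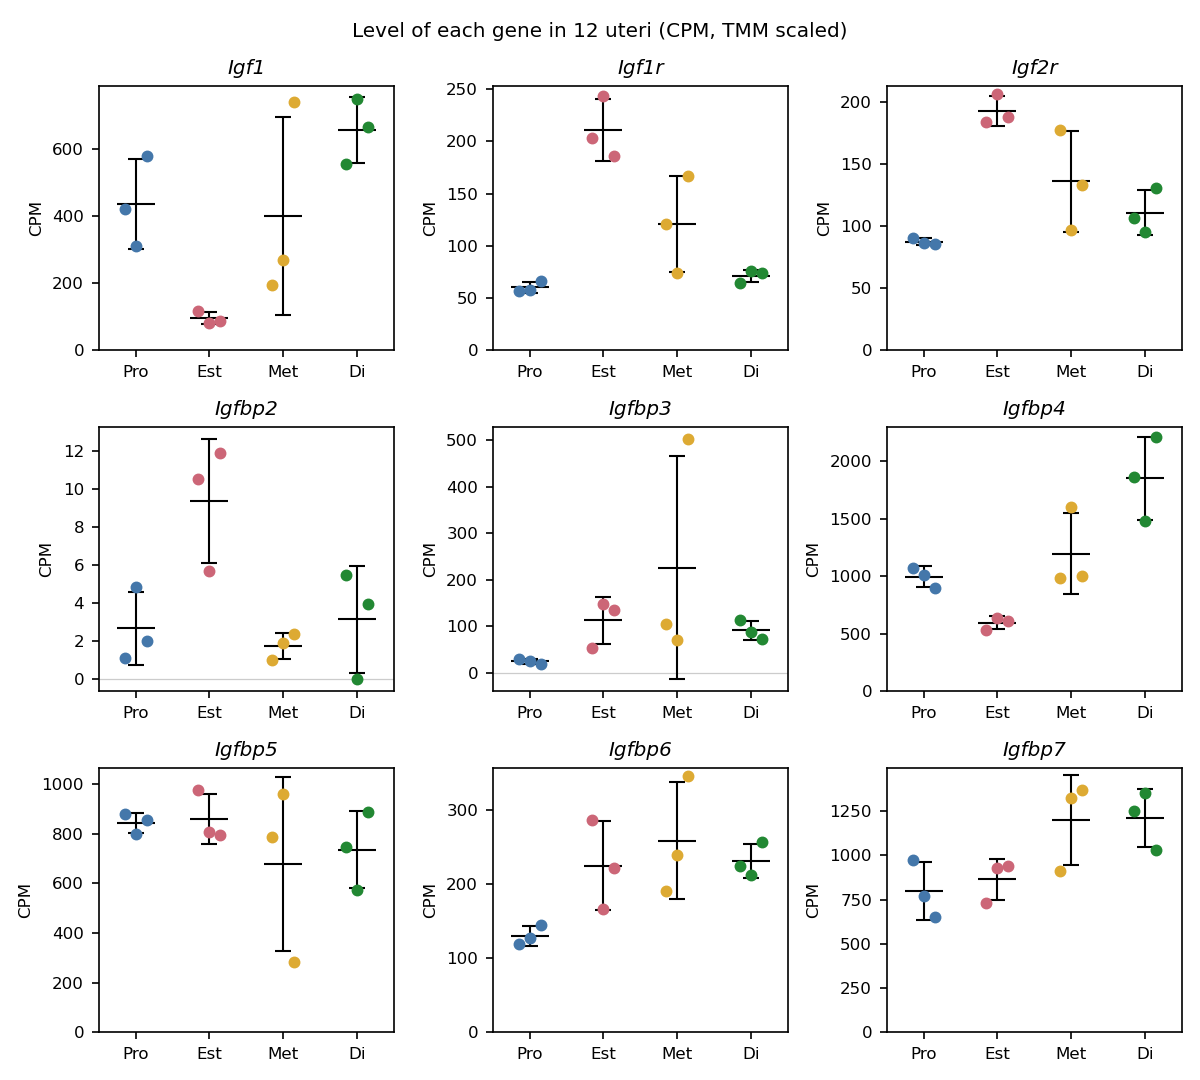
Level of each of the 9 genes in CPM (vertical axis, 1 scale per panel) by stage (horizontal axis). Points are single uteri, bars the stage mean ± SD (n = 3). Igf1 and Igfbp4 have their lowest values in estrus, Igf1r and Igf2r their highest, and the 3 points of Igfbp5 overlap between all stages.

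Over the 4 stages, 6 of the 9 genes differed by edgeR's quasi-likelihood F test at a Benjamini-Hochberg adjusted p under 0.05, namely Igf1, Igf1r, Igf2r, Igfbp3, Igfbp4 and Igfbp6. Of all 12052 genes tested, 23.2% were called by that test. With only genes of a mean of at least 50 counts fitted, 1844 of 5481 were called. Igfbp2 (adjusted p = 0.0809), Igfbp7 (0.0566) and Igfbp5 (0.749) were not. These are levels in whole tissue, in which fewer cells of a type and less RNA per cell cannot be told apart.

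Igf1 (ENSMUSG00000020053, chr10:87858265-87937042, plus strand, GRCm38), the ligand, was lowest in estrus. In proestrus its level was 423, 311 and 579 CPM, and in estrus it was 118, 82.9 and 88.8 CPM. In metestrus it was 194, 269.5 and 739 CPM, and in diestrus 556, 750.4 and 665 CPM. Every estrus uterus lay below every uterus of the other stages, whereas proestrus, metestrus and diestrus overlapped with their neighbours. The stage means were 437 ± 134 CPM for proestrus, 96.4 ± 18.5 for estrus, 401 ± 295 for metestrus and 657 ± 97.5 for diestrus (SD, n = 3 each). From proestrus to estrus Igf1 fell by 2.18 ± 0.40 on the log2 scale (fitted value and a standard error derived from the test's F, adjusted p = 0.00335), which is 4.54-fold. It was higher again in metestrus than in estrus by 2.06 ± 0.40 (adjusted p = 0.00910), and in diestrus than in estrus by 2.77 ± 0.41 (adjusted p = 0.000461), or 6.82-fold. Metestrus replicate 7 held 739 CPM, and without it the metestrus mean was 232 CPM and the rise from estrus was 1.29 on the log2 scale (adjusted p = 0.00847). All 3 calls were kept when any 1 of the 12 libraries was left out.

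The estimated split of Igf1 reads between its transcripts differed in estrus, and the change in Igf1 was smaller in TPM than in CPM. GENCODE M21 annotates 8 Igf1 transcripts, and Igf1-202, whose 3' end lies farthest along the gene at position 87937042, took 82.3% of all Igf1 counts. Igf1-203, which ends at position 87931801, took 14.7%, and Igf1-205, which ends at position 87930893, took 1.21%. In estrus, Igf1-202 held 56.2%, 60.3% and 53.9% of the Igf1 counts. Its share was 79.0% to 88.2% in proestrus, 76.5% to 85.3% in metestrus and 84.8% to 88.9% in diestrus, so that the 3 estrus uteri stood below the other 9. Igf1-203 held 29.7% ± 4.47 in estrus and 10.6% to 15.5% on average in the other stages, and Igf1-205 held 12.0% ± 7.17 in estrus (20.3% in replicate 5) and 0.0902% to 1.90% elsewhere (SD, n = 3 each). The level of Igf1-202 was 366 ± 117 CPM in proestrus and 54.6 ± 9.91 CPM in estrus, while all other Igf1 transcripts together were at 71.2 ± 24.8 and 41.8 ± 9.34 CPM (SD, n = 3 each). The split between transcripts is the quantifier's estimate. Igf1-202 is annotated with 7052 bases, Igf1-203 with 1673 and Igf1-205 with 798, and TPM is a relative level that divides by transcript length. The part of the split in the gap between CPM and TPM was not tested. The authors' TPM for Igf1 averaged 101 in proestrus, 48.1 in estrus, 97.8 in metestrus and 147 in diestrus, a ratio of 3.05 between diestrus and estrus in place of 6.81 in CPM. With counts scaled from TPM, the fall from proestrus to estrus was 1.06 on the log2 scale and was not called (adjusted p = 0.0977), nor were the rise to metestrus (1.19, adjusted p = 0.101) or the F test (adjusted p = 0.0598). Diestrus against estrus stayed called in all 22 alternatives, this one among them, at 1.61 to 2.93 (adjusted p of 0.0143 or less). The antisense gene Igf1os, which overlaps Igf1, had no transcript among those matched in the deposited tables and so could not be analysed. Since strand use in the counting is not given in the sources used here, reads of the 2 strands cannot be told apart.

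**Figure D2:**
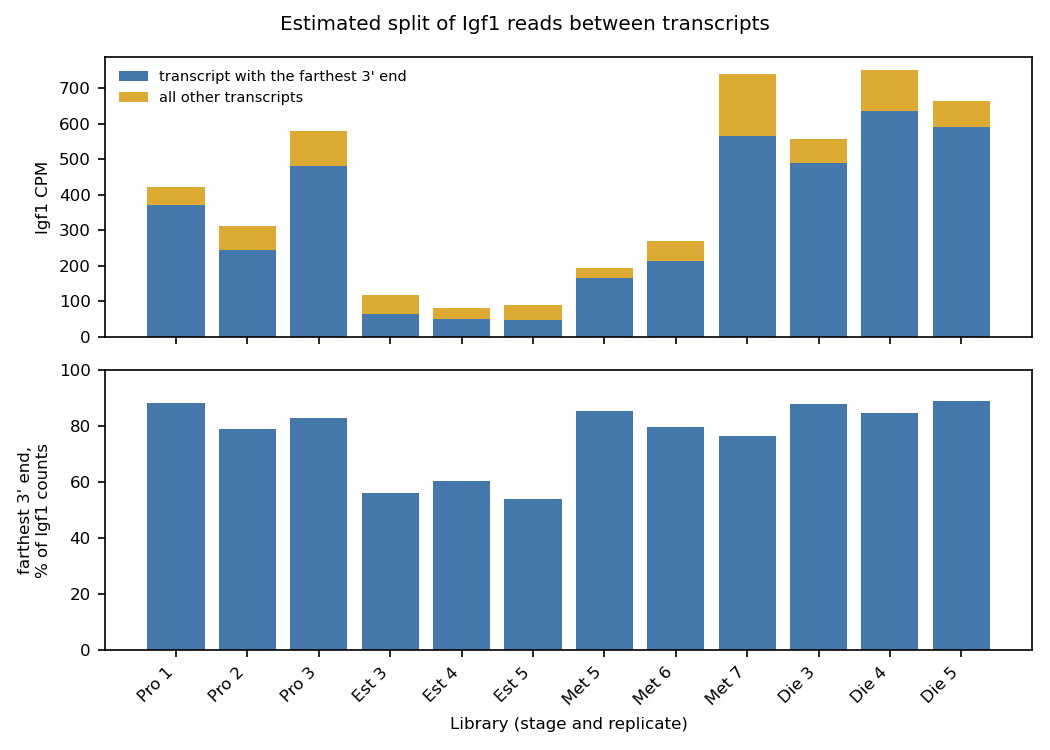
Upper panel, Igf1 level in CPM (vertical axis) in each of the 12 libraries (horizontal axis), split into the transcript with the farthest 3' end (Igf1-202) and all other transcripts. Lower panel, share of the Igf1 counts given to Igf1-202 in percent, which was 53.9% to 60.3% in the 3 estrus libraries and 76.5% or more in the other 9.

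Igf1r (ENSMUSG00000005533, chr7:67952827-68233668, plus strand), the signalling receptor of IGF1, was highest in estrus, the stage with the least Igf1. It stood at 56.5, 58.2 and 66.5 CPM in proestrus and at 203, 244 and 186 CPM in estrus. It was 121, 74.5 and 167 CPM in metestrus and 64.8, 75.6 and 74.1 CPM in diestrus. All 3 estrus uteri lay above all others, and all metestrus uteri lay above all proestrus uteri. The means were 60.4 ± 5.35, 211 ± 29.5, 121 ± 46.2 and 71.5 ± 5.87 CPM in the same order (SD, n = 3 each). Igf1r rose from proestrus to estrus by 1.80 ± 0.23 on the log2 scale (adjusted p = 0.000434), 3.49-fold, and was lower in diestrus than in estrus by 1.56 ± 0.23, a log2 fold change of -1.56 (adjusted p = 0.000392). Both calls were kept without any 1 library. The fall from estrus to metestrus, a log2 fold change of -0.80 ± 0.22 (adjusted p = 0.0419), did not hold in 11 of 12 leave-one-out fits (adjusted p of 0.0545 to 0.162) and was kept only without metestrus replicate 7, at -1.07 (adjusted p = 0.00712). The excess in metestrus over proestrus, 1.00 ± 0.23 (adjusted p = 0.0281), was lost without proestrus replicate 1 (adjusted p = 0.0926), 2 (0.108) or 3 (0.0831) and without metestrus replicate 7 (0.0868).

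Igf2r (ENSMUSG00000023830, chr17:12682406-12769664, minus strand), the mannose 6-phosphate receptor, had the same order of stage means as Igf1r. Its level was 90.7, 86.3 and 85.8 CPM in proestrus and 184, 207 and 188 CPM in estrus. It was 178, 97.2 and 134 CPM in metestrus and 107, 95.4 and 131 CPM in diestrus. Every estrus uterus was above every other uterus, the proestrus uteri were below all others, and metestrus and diestrus overlapped. The rise from proestrus to estrus was 1.14 ± 0.19 on the log2 scale (adjusted p = 0.00193), or 2.20-fold, from 87.6 ± 2.72 to 193 ± 12.2 CPM (SD, n = 3 each). In diestrus the mean was 111 ± 18.4 CPM, a log2 fold change of -0.80 ± 0.19 from estrus (adjusted p = 0.00784), and in metestrus it was 136 ± 40.4 CPM, with -0.50 ± 0.19 from estrus (adjusted p = 0.117). Both calls were kept without any 1 library. Airn, an antisense gene that overlaps Igf2r, likewise had no transcript among those matched and could not be analysed.

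**Figure D3:**
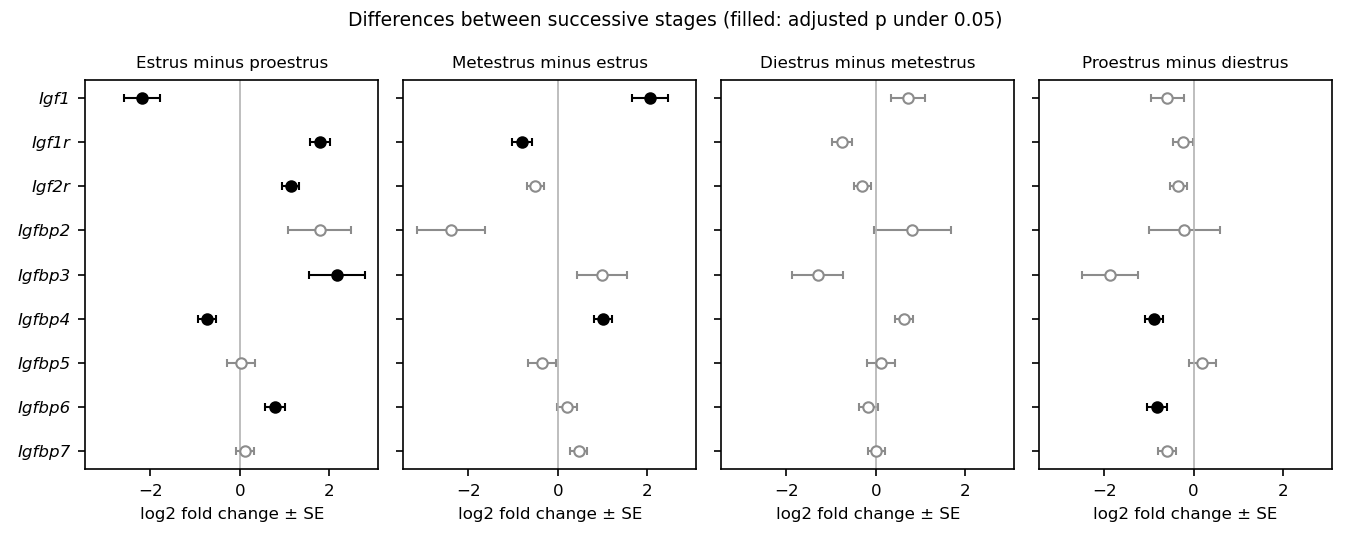
Log2 fold change ± standard error (horizontal axis) of each gene (vertical axis) between successive stages, 1 panel per comparison. Filled points have an adjusted p under 0.05. Igf1 and Igfbp4 lie below 0 from proestrus to estrus while both receptors lie above 0, and no point is filled from metestrus to diestrus.

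Among the binding proteins, Igfbp4 (ENSMUSG00000017493, chr11:99041244-99054392, plus strand), which inhibits IGF action until it is cleaved by the protease PAPP-A, moved most like the ligand. It was 1074, 1013 and 895 CPM in proestrus and 535, 639 and 615 CPM in estrus. It was 984, 1601 and 1003 CPM in metestrus and 1862, 1482 and 2206 CPM in diestrus. Estrus lay below all other stages without overlap, and all diestrus uteri lay above all proestrus uteri, while diestrus and metestrus overlapped. The means were 994 ± 90.9, 596 ± 54.3, 1196 ± 351 and 1849.6 ± 362 CPM (SD, n = 3 each). Igfbp4 fell from proestrus to estrus by 0.74 ± 0.20 on the log2 scale (adjusted p = 0.0230), was higher in metestrus than in estrus by 1.00 ± 0.20 (adjusted p = 0.0100) and in diestrus than in estrus by 1.63 ± 0.20 (adjusted p = 0.000136), and was lower in proestrus than in diestrus, at -0.90 ± 0.20 (adjusted p = 0.0126). The first of these was lost without proestrus replicate 1 (adjusted p = 0.0805) or 2 (0.0614) and without estrus replicate 3 (0.0794) or 5 (0.0569). The last was lost without proestrus replicate 2 (0.0546) or 3 (0.0640) and without diestrus replicate 5 (0.0614). Of the 31-base words in Igfbp4 transcripts, 6.07% also occur in other genes.

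Igfbp3 (ENSMUSG00000020427, chr11:7206086-7213923, minus strand), the main carrier of IGF in the circulation, was lowest in proestrus. It stood at 29.1, 26.4 and 19.8 CPM in proestrus and at 53.8, 149 and 136 CPM in estrus. It was 105, 70.7 and 502 CPM in metestrus and 114, 88 and 72.4 CPM in diestrus. All 3 proestrus uteri lay below the other 9, which overlapped among their stages, and metestrus replicate 7 held more than any other library. From proestrus, at 25.1 ± 4.79 CPM, it rose by 2.17 ± 0.63 on the log2 scale to estrus, at 113 ± 51.4 CPM (SD, n = 3 each, adjusted p = 0.0299). It was 3.17 ± 0.63 higher in metestrus, at 226 ± 239.6 CPM (adjusted p = 0.0162), and without metestrus replicate 7 by 1.83 (adjusted p = 0.0285). The diestrus mean was 91.4 ± 20.8 CPM, and the difference between proestrus and diestrus, -1.87 ± 0.63, was not called (adjusted p = 0.0886). Leaving out proestrus replicate 1, 2 or 3 lost both calls, with adjusted p-values of 0.0770, 0.0779 and 0.108 against estrus and 0.0563, 0.0758 and 0.0831 against metestrus. The estrus call was also lost without estrus replicate 4 (0.0997) or 5 (0.0880), and the F test (adjusted p = 0.0141) without proestrus replicate 3 (0.0559). With limma-voom neither comparison was called (adjusted p = 0.0680 and 0.0624), nor was the F test (0.0605). Its neighbour Igfbp1, 3539 bases away on the opposite strand, had 0 counts in all 12 libraries.

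Igfbp6 (ENSMUSG00000023046, chr15:102144362-102149511, plus strand), which prefers IGF2 to IGF1, was likewise lowest in proestrus. It was 119, 127 and 145 CPM in proestrus and 287, 166 and 221 CPM in estrus. It was 191, 239.9 and 345 CPM in metestrus and 225, 212 and 257 CPM in diestrus. Each proestrus uterus lay below each of the other 9, and the other 3 stages overlapped with means of 225 ± 60.4, 259 ± 78.6 and 231 ± 23.1 CPM against 130.2 ± 13.6 in proestrus (SD, n = 3 each). Igfbp6 was higher than in proestrus by 0.79 ± 0.22 on the log2 scale in estrus (adjusted p = 0.0274) and by 0.99 ± 0.22 in metestrus (adjusted p = 0.0262), and proestrus was below diestrus, at -0.83 ± 0.22 (adjusted p = 0.0333). All 3 calls and that of the F test (adjusted p = 0.0223) were lost without any 1 of the 3 proestrus replicates, with adjusted p-values of 0.0543 to 0.115. The estrus call was also lost without estrus replicate 3 (0.117) or 5 (0.0685), the metestrus call without metestrus replicate 7 (0.0818), and the diestrus call without diestrus replicate 3 (0.0746), 4 (0.0601) or 5 (0.112).

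Igfbp7 (ENSMUSG00000036256, chr5:77349240-77408041, minus strand), which binds IGFs with low affinity, did not pass the test over the stages. Its level was 977, 771 and 652 CPM in proestrus, 732, 926 and 939.8 CPM in estrus, 910.2, 1322 and 1368 CPM in metestrus and 1251, 1352 and 1028 CPM in diestrus. The 3 diestrus values lay above all 6 of proestrus and estrus, with a fitted difference between proestrus and diestrus of -0.60 ± 0.19 on the log2 scale (adjusted p = 0.0781). DESeq2 called Igfbp7 over the stages (adjusted p = 0.0113), as did edgeR without the filter on low counts (0.0132), with a mean of at least 50 counts (0.0464), with library totals (0.0469), and without proestrus replicate 1 (0.0429) or metestrus replicate 5 (0.0123). Of its 31-base words, 4.57% lie in the reverse strand of Polr2b, whose end overlaps that of Igfbp7 and which averaged 197 counts against 1184 or more for Igfbp7.

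Igfbp5 (ENSMUSG00000026185, chr1:72857932-72874884, minus strand), a binding protein that also attaches to the extracellular matrix, was at 845 ± 40.0 CPM in proestrus, 860.3 ± 102 in estrus, 677 ± 351 in metestrus and 737 ± 157 in diestrus (SD over 3 uteri). No stage stood apart from its neighbour. The low metestrus mean came with metestrus replicate 7, at 284 CPM against 786 and 960.1 CPM in the other metestrus uteri. The fitted differences lay between -0.35 ± 0.31 (metestrus against estrus) and 0.20 ± 0.31 (proestrus against diestrus) on the log2 scale.

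Igfbp2 (ENSMUSG00000039323, chr1:72824503-72852474, plus strand) lies 5457 bases from Igfbp5, facing it, and was nearly undetected. It had 2, 9 and 4 counts in proestrus, 17, 10 and 26 in estrus, 2, 3 and 4 in metestrus and 11, 0 and 7 in diestrus. The estrus uteri, at 9.38 ± 3.25 CPM (SD, n = 3), lay above those of proestrus and metestrus and, at 5.72 CPM or more, just above the highest diestrus value of 5.48 CPM. The fitted difference between estrus and proestrus was 1.79 ± 0.71 on the log2 scale (adjusted p = 0.0996). Igfbp2 was called over the stages by DESeq2 (adjusted p = 0.0472) and, in edgeR, without the filter on low counts (0.0317) and without diestrus replicate 4 (0.0312), the library with 0 counts.

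By comparison of stages, estrus against proestrus gave the most calls, with 4 of the 9 genes higher (Igf1r, Igf2r, Igfbp3 and Igfbp6) and 2 lower (Igf1 and Igfbp4), beside 17.1% of all genes tested, 9.67% higher and 7.46% lower. The median log2 fold change of the 9 genes was 0.79, against 0.02 over all genes tested. It mixes genes that rose with genes that fell. Since the 9 genes were chosen with earlier results of these data known, neither the median nor the counts show a shift of the axis as a set. In diestrus against estrus, 2 genes were higher (Igf1 and Igfbp4) and 2 lower (both receptors), beside 22.8% of all genes, 9.72% higher and 13% lower. In metestrus against estrus, Igf1 and Igfbp4 were higher and Igf1r lower, beside 7.56% of all genes, 2.83% higher and 4.73% lower. Proestrus was lower than diestrus in Igfbp4 and Igfbp6, beside 8.53% of all genes in either direction and 3.91% in this one. Metestrus was higher than proestrus in Igf1r, Igfbp3 and Igfbp6, beside 4.31% of all genes in either direction and 2.49% in this one. Between metestrus and diestrus, edgeR called 0 of the 9 genes, beside 0.224% of all genes, with 3 at an unadjusted p under 0.05, and DESeq2 and limma-voom called 0 too. That count was 2 without metestrus replicate 6 and 1 without metestrus replicate 7. The 6 comparisons share stages and so are not independent.

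The ratio of Igf1 to Igf1r counts within a uterus was lowest in estrus. It was 7.48, 5.34 and 8.70 in proestrus, 0.579, 0.340 and 0.477 in estrus, 1.6, 3.62 and 4.43 in metestrus, and 8.58, 9.92 and 8.97 in diestrus. The estrus uteri lay below all others and the metestrus uteri between those of estrus and those of the remaining stages, with no overlap. This ratio is not per length and is read only between stages. The ratio of the authors' TPM was 1.46 to 3.00 in estrus, 5.07 to 13.4 in metestrus, 14.1 to 22.1 in proestrus and 19.8 to 24.4 in diestrus, with estrus again below all others. The 6 binding proteins had a summed level of 2797 ± 259 CPM in proestrus, 2669.5 ± 64.9 in estrus, 3559.9 ± 610 in metestrus and 4122 ± 380 in diestrus (SD over 3 uteri). Binding protein counts per Igf1 count were 22.1 to 32.5 in estrus, against 4.44 to 8.82 in proestrus, 4.74 to 15.6 in metestrus and 4.94 to 7.56 in diestrus. Igfbp4 made up 22.3% ± 1.58 of the binding protein counts in estrus and 44.6% ± 4.79 in diestrus, and Igfbp4, Igfbp5 and Igfbp7 together made up 75.8% to 95.2% in every uterus, with the lowest share in metestrus replicate 7.

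**Figure D4:**
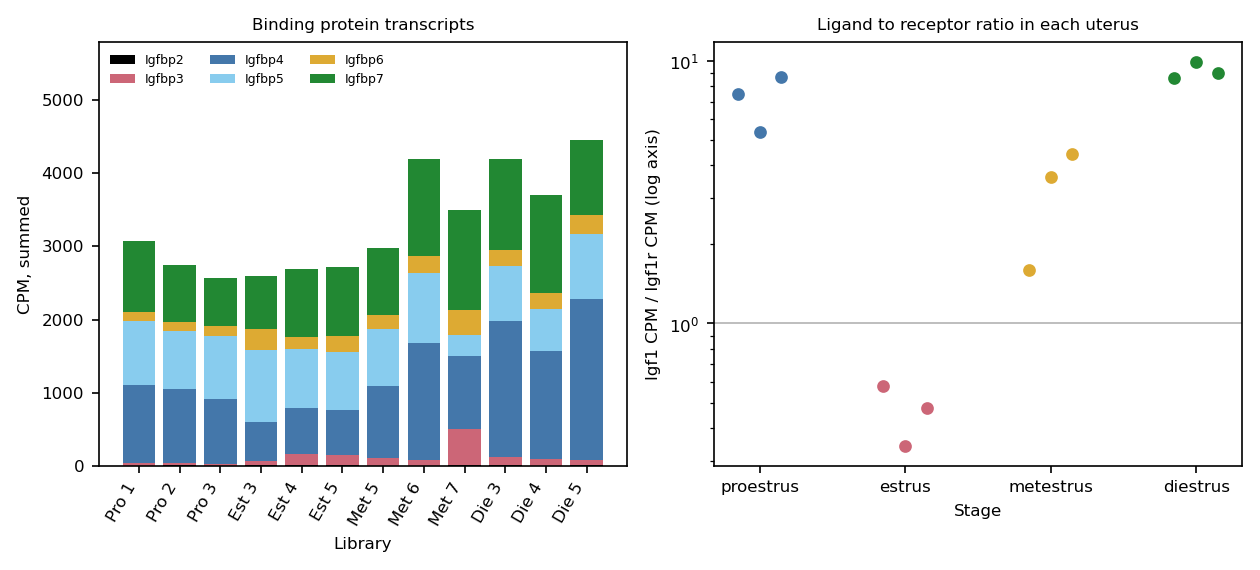
Left, summed binding protein level in CPM (vertical axis) in each library (horizontal axis), stacked by gene. Right, ratio of Igf1 to Igf1r CPM (vertical axis, log scale) by stage, with points for single uteri. The estrus points lie at 0.340 to 0.579 and the points of the other 9 uteri at 1.6 to 9.92.

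Compared per length, in the authors' TPM, the order of the median levels over the 12 uteri was Igfbp7 (1113 TPM), Igfbp4 (283), Igfbp6 (240.3), Igfbp5 (141), Igf1 (80.0), Igfbp3 (36.0), Igf2r (12.6), Igf1r (6.98) and Igfbp2 (3.70). By CPM, which suits a method that reads 1 end of each transcript, Igfbp4 came first (median 1008 CPM) and Igfbp7 next (958), and only 2 of the 9 genes, Igf1r and Igfbp2, kept their place. These medians run over all stages. By the estrus means in CPM the order was Igfbp7 (866), Igfbp5 (860.3), Igfbp4 (596), Igfbp6 (225), Igf1r (211), Igf2r (193), Igfbp3 (113), Igf1 (96.4) and Igfbp2 (9.38). By the estrus means in TPM, Igfbp7 (1009.8 TPM) was first, ahead of Igfbp6 (261), Igfbp4 (166) and Igfbp5 (147), and Igf1r (20.3) stood just above Igfbp2 (12.0).

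Other genes of the axis, 57 in all in 5 lists, were read from the same fit, and 48 passed the filter. Over the stages 17 of these 48 were called, 35.4% beside the 23.2% of all genes. That 23.2% includes many genes with few counts, and of genes with a mean of at least 50 counts 1844 of 5481 were called. The lists were chosen with earlier results of these data known. Among proteases that cut binding proteins and their inhibitors 5 of 9 tested were called, among receptor signalling genes 7 of 29, in the growth hormone axis 3 of 6, among the IGF mRNA binding proteins 1 of 2 and among other ligands, receptors and carriers 1 of 2. Between estrus and proestrus, 8 of the 48 were higher in estrus and 4 lower, beside 9.67% and 7.46% of all genes. Between diestrus and estrus, 5 were higher in diestrus and 14 lower, beside 9.72% and 13% of all genes.

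The other IGF ligand, Igf2, had 8.77 ± 1.09 CPM in proestrus, 7.41 ± 2.13 in estrus, 13.8 ± 5.25 in metestrus and 12.1 ± 3.37 in diestrus (SD over 3 uteri), with no comparison called. Ins1, Ins2 and Igfbp1 had 0 counts in all 12 libraries. Insr, the insulin receptor, which can pair with the IGF1 receptor, was highest in estrus as Igf1r was. Insr stood at 37.1 ± 8.04, 62.3 ± 3.5, 43.9 ± 8.19 and 32.7 ± 4.16 CPM from proestrus to diestrus (adjusted p = 0.00864 over the stages, but 0.515 with counts scaled from TPM), and its 3 estrus values lay above all others.

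Of the genes that free IGF from its carriers or hold those proteases back, Stc2, stanniocalcin-2, an inhibitor of PAPP-A, was at 31.7 ± 2.65, 59.9 ± 4.69, 16.7 ± 5.06 and 11.8 ± 2.03 CPM from proestrus to diestrus (adjusted p = 3.23e-05). Htra3, a serine protease, was at 48.2 ± 2.3, 166 ± 25.5, 117 ± 55.7 and 69.9 ± 12.8 CPM (adjusted p = 0.00133). Adam28, a metalloprotease, was low throughout, at 4.13 ± 0.661, 8.30 ± 1.80, 2.11 ± 0.860 and 1.25 ± 0.912 CPM (adjusted p = 0.00610). All 3 had their highest mean in estrus. Ctsd, the lysosomal protease cathepsin D, which the mannose 6-phosphate receptor carries, was instead highest in diestrus, at 165 ± 30.9, 368 ± 22.2, 360.2 ± 81.2 and 848 ± 221 CPM (adjusted p = 5.93e-05). Stc1, of the same list as Stc2, had its lowest mean in estrus, at 21.4 ± 4.32, 9.45 ± 5.28, 11.9 ± 3.58 and 25.3 ± 11.8 CPM, and was not called (adjusted p = 0.0567). Pappa, the gene of PAPP-A, was at 8.83 ± 5.52, 16.4 ± 3.85, 11.9 ± 2.49 and 15.4 ± 7.02 CPM and was not called either (adjusted p = 0.358).

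Within receptor signalling, Irs2, a docking protein of the activated receptors, was at 3.58 ± 0.769 CPM in proestrus and 21.0 ± 1.82 CPM in estrus, with 16.3 ± 10.3 in metestrus and 7.68 ± 1.71 in diestrus (adjusted p = 0.00652, and 0.0559 with limma-voom). Shc1, an adaptor of the same receptors, was at 44.9 ± 7.08, 77.7 ± 8.19, 53.5 ± 11 and 47.4 ± 2.31 CPM (adjusted p = 0.0104, and 0.0802 without estrus replicate 4). Pik3cb, a catalytic subunit of PI3 kinase, was at 18.2 ± 1.91, 24.6 ± 1.03, 9.70 ± 2.97 and 11.6 ± 2.94 CPM (adjusted p = 0.00597). All 3 had their highest mean in estrus, as did Foxo3, a transcription factor that AKT holds in the cytoplasm, with 28.1 ± 1.3, 54.1 ± 5.18, 43.9 ± 12.9 and 26.7 ± 1.53 CPM (adjusted p = 0.00466). The estrus values of Shc1 and Pik3cb lay above all others. Those of Irs2 and Foxo3 overlapped with metestrus, where replicates 5 and 7 held 21.3 and 23.3 CPM of Irs2 and 50.3 and 52.5 CPM of Foxo3.

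Lowest in estrus, as the ligand was, were Grb10, an adaptor that restrains the receptor, and the kinase Akt1. Grb10 was at 50.6 ± 9.75, 25.0 ± 0.868, 46.0 ± 4.83 and 61.2 ± 13.9 CPM (adjusted p = 0.00274). Akt1 was at 102.5 ± 5.90, 66.0 ± 7.38, 92.5 ± 7.36 and 97.9 ± 2.36 CPM (adjusted p = 0.00988, and 0.0544 without estrus replicate 3). For both genes the 3 estrus values lay below the other 9. Igf2bp2, which binds the messenger RNA of Igf2 and other genes, was at 32.7 ± 11.7, 46.4 ± 4.12, 25.3 ± 4.61 and 16.3 ± 6.26 CPM (adjusted p = 0.00852, and 0.0551 with counts scaled from TPM).

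**Figure D5:**
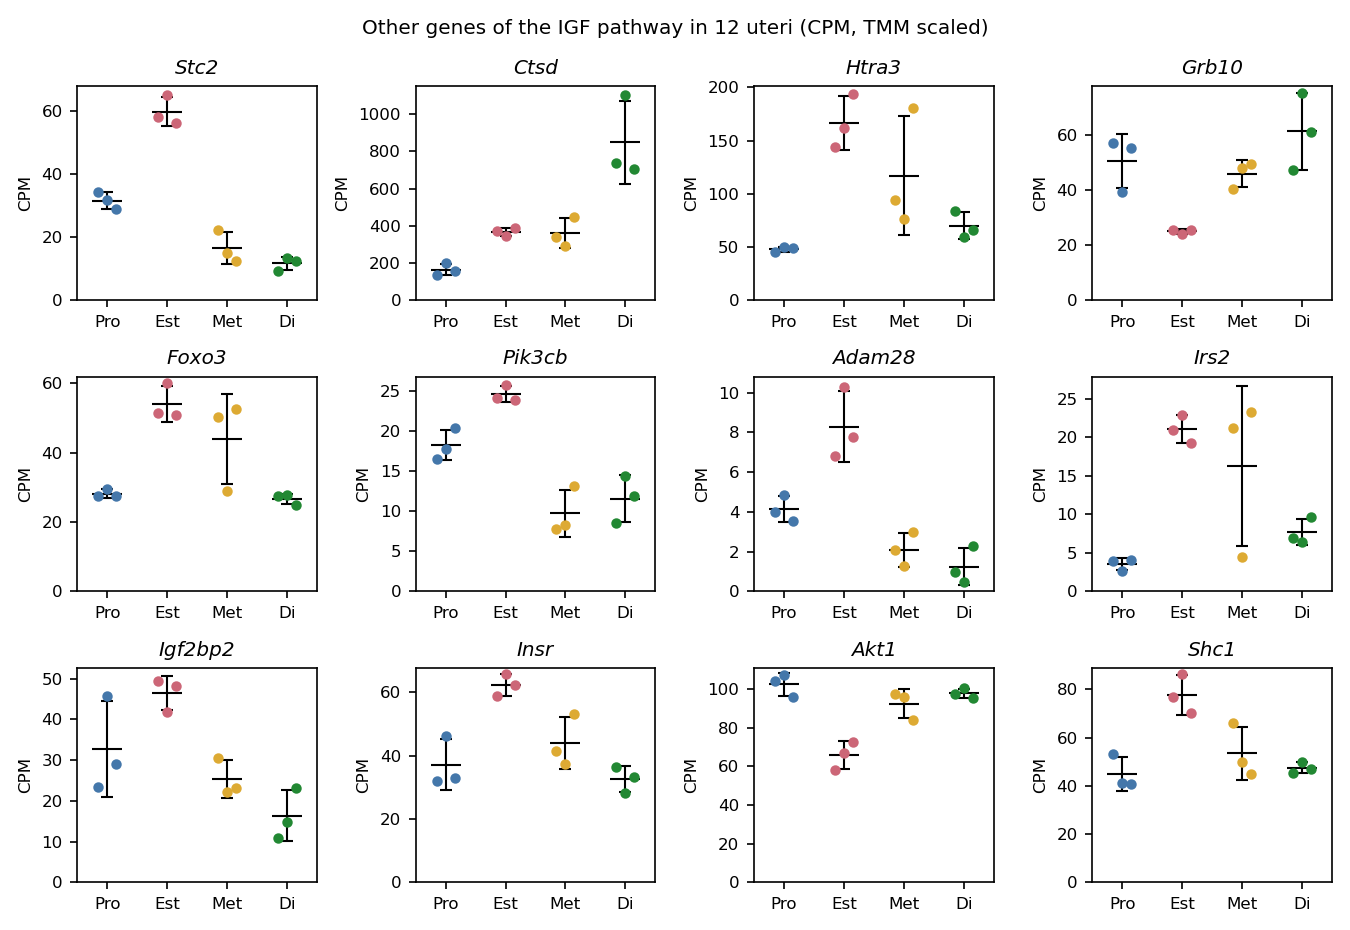
Level in CPM (vertical axis, 1 scale per panel) of the 12 other genes of the axis with the smallest p over the stages, by stage (horizontal axis). Points are single uteri and bars the stage mean ± SD (n = 3). Grb10 and Akt1 have their lowest values in estrus, Ctsd its highest mean in diestrus.

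Over the 12 uteri the members' log2 CPM moved together to different degrees. Igf1r and Igf2r had a Pearson correlation of 0.911, Igf1 and Igfbp4 of 0.749, Igf1 and Igf1r of -0.697 and Igfbp3 and Igfbp6 of 0.714, each with n = 12 libraries that share the stages. Among 9439 genes with a mean of at least 10 CPM, those most like Igf1 were Dpm3 (0.966), Dkc1 (0.948) and Wdr12 (0.946). The nearest to Igf1r were Txnip (0.979), Ndrg1 (0.978) and Ccdc152 (0.966), and to Igf2r Fbxo32 (0.983), Tmem98 (0.977) and Tmem140 (0.971). For Igfbp4 they were Nipsnap1 (0.953), Lsp1 (0.953) and Cox6c (0.951), for Igfbp3 Ripor1 (0.939), Tfpi (0.932) and H2-Aa (0.922), and for Igfbp6 Camk2d (0.956), Dact1 (0.929) and Kif1bp (0.900).

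Markers of some cell types moved with the stages as well. The 4 macrophage markers summed to 289 to 317 CPM in estrus and 116 to 165 CPM in proestrus. All 4 were called higher in estrus, the stage with the most Igf1r and Igf2r, than in proestrus, beside 9.67% of all genes. The 5 smooth muscle markers summed to 7404 to 9454 CPM in estrus and 4959 to 7668 CPM in the other stages, with 2 of 5 called higher in estrus than in proestrus. Acta2 and Cnn1 instead had lower means in estrus (2686 and 782 CPM) than in proestrus (3220 and 805 CPM), and neither was called. The 5 epithelial markers summed to 1130 to 1489 CPM in proestrus, 1119 to 1412 in estrus, 458 to 922 in metestrus and 455 to 639 in diestrus. All 5 were called lower in diestrus than in estrus, beside 13% of all genes. Diestrus had the highest means of Igf1 and Igfbp4. Between estrus and proestrus, where Igf1 and Igfbp4 also differed, 0 of the 5 epithelial markers were called. The 6 stromal fibroblast markers summed to 7652 to 8168 CPM in estrus, 9295 to 9410 in proestrus, 5002 to 10889 in metestrus and 6677 to 8976 in diestrus, with 1 of 6 called higher and 1 lower between estrus and proestrus. The 5 endothelial markers summed to 1253 to 2035 CPM over all stages, mostly Pecam1, and 0 of 5 were called over the stages or in any comparison. Pecam1 had a lower mean in diestrus than in estrus, and Cdh5, Kdr, Emcn and Tek a higher one. The part of these markers in the changes of the IGF axis was not tested.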

How the data were processed

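The authors deposited, for each of the 12 libraries, a table of estimated counts and TPM for 119414 transcripts, and the submitters' processing notes name kallisto, FastQC and DESeq2. The same deposited tables hold transcript lengths and effective lengths. The effective lengths entered only the alternative with counts scaled from TPM, and the transcript lengths served only for description. Of the transcripts, 97.7% matched GENCODE M21 (GRCm38), and the estimated counts were summed over 35896 genes and rounded to whole numbers. Counts not matched made up 0.619% to 0.774% of a library. Genes were filtered by edgeR's filterByExpr over the stages (12052 kept), scaled by TMM (factors 0.908 to 1.05) and fitted with edgeR 4.0.16's quasi-likelihood model in R 4.3.3, with 1 coefficient per stage over all 12 samples. P-values of the overall F test and of 6 contrasts (two-sided) were adjusted by Benjamini-Hochberg over all tested genes, with calls under 0.05. The standard error of a log2 fold change is not an output of this model. It was derived as the size of the fold change over the square root of its F. The level of 3 counts is given only as a scale in CPM and was not a filter in the fit. No molecular identifiers are described. Library preparation started from 100 ng of RNA, per the labels' protocols, which name no batch.

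All 9 members were named. The other named genes were, by rule, the 12 list genes with the smallest F test p among those called, and for each called member the 3 genes of at least 10 CPM with the highest correlation. Stc1 and Pappa, which were not called, are given beside Stc2 outside this rule. The members and lists were chosen with earlier results of these data known. The GC and TATA boxes were added to the motif search after the other motifs. The fit was tested on simulated counts. Alternatives were DESeq2 1.42.0, limma-voom (limma 3.58.1), DESeq2's size factors, library totals, no filter, a mean of at least 50 counts, counts scaled from TPM, fits of 2 stages only, a replicate block and leaving out each library.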

Additional observations from a re-analysis of the deposited data

How the results depend on the processing

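Of 797 alternative values for the 39 tests of named genes, 707 kept their side of the threshold, 81 lost a call and 9 gained one. Direction was followed only in the comparisons of 2 stages, where none was reversed. The F tests among the 39 have no direction. The number of members called over the 4 stages was 6 and lay at 4 to 7 when 1 library was left out. Left-out libraries gave 3 to 7 calls for estrus against proestrus (6 with all), 2 to 4 for metestrus against estrus (3), 0 to 2 for diestrus against metestrus (0), 0 to 3 for proestrus against diestrus (2), 0 to 4 for metestrus against proestrus (3) and 4 to 5 for diestrus against estrus (4). The deviations of same-numbered libraries from their stage means had correlations of -0.0433 to 0.163 (7 pairs). Those of differently numbered libraries had -0.196 to 0.265 (47 pairs). Whether replicate numbers mark a shared batch cannot be told from so few pairs, and the main fit held no replicate block. With the replicate block in the fit, 4 members were called over the stages, without Igfbp3 (adjusted p = 0.0909) and Igfbp6 (0.138), Akt1 was not called (0.0634), and the calls for estrus against proestrus were 3, for metestrus against estrus 0, for diestrus against metestrus 1, for proestrus against diestrus 0, for metestrus against proestrus 0 and for diestrus against estrus 4, and Igf1 in metestrus against estrus was 1.06 (adjusted p = 0.128). Fitted on the 6 samples of the 2 stages alone, proestrus against diestrus gave 4 calls, metestrus against proestrus 0, and Igfbp4 in metestrus against estrus an adjusted p of 0.0557. Without the filter on low counts, proestrus against diestrus gave 4 calls, and with counts scaled from TPM 1. The other genes of the axis gave 13 to 19 calls over the stages under all alternatives run. In TPM the ratio of diestrus to estrus for Igf1 was 3.05, and in CPM 2 of the 9 genes kept their rank by TPM. The cause was not tested. Over all tested genes, estrus against proestrus gave 711 to 2788 calls, metestrus against estrus 132 to 1364, diestrus against metestrus 0 to 256, proestrus against diestrus 358 to 1463 and metestrus against proestrus 42 to 1080. At this depth Igfbp2, with 0 to 26 counts, could not be measured closely.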
